A study of Mus musculus with 20 samples.

Results

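The genes of glycolysis and of the response to low oxygen were taken by symbol, 32 of the 24848 genes listed, and are described in portal and stellate mesenchymal cells of the mouse liver and in the myofibroblasts grown from them. They comprise 2 glucose transporters, 15 glycolytic enzymes, 3 regulators of glycolytic flux, 4 genes of lactate production and transport, 2 subunits of hypoxia-inducible factor (HIF), 2 hydroxylases that act on those subunits, and 4 other genes known to be induced by hypoxia. All 32 had enough reads to be tested. Glycolysis splits glucose into pyruvate, lactate dehydrogenase turns pyruvate into lactate, and monocarboxylate transporters carry lactate across the plasma membrane. HIF is a dimer whose alpha subunit is hydroxylated by EGLN enzymes and then degraded while oxygen is plentiful, and which, when oxygen is scarce, binds near glycolytic and other genes and raises their transcription. In the liver, oxygen falls along the sinusoid away from the portal tract, and stellate cells are known to take up more glucose when they become myofibroblasts.

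RNA was sequenced from liver cells of C57BL/6 mice in 5 groups of 4 libraries, 20 in all. PMSC were portal mesenchymal stem cells taken without culture, and PMSC-MF-3d and PMSC-MF-7d were the myofibroblasts (contractile, matrix-producing cells) grown from them for 3 and 7 days. HSC-MF-7d were myofibroblasts grown from hepatic stellate cells, the vitamin A-storing cells of the sinusoid, and HSC were stellate cells without culture. Cultured stellate cells are of day 7 by the titles and of day 3 by the series description, so both portal times were set against them. No genotype, agent or disease model is named for any group, and the glucose and oxygen of the culture medium are not given in the sources used here. Whether a group's libraries are from different animals or cultures is stated in no label, so every p-value measures only the spread between these libraries, which may be technical.

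Summed expected counts (the estimated reads assigned to genes) ran from 11810532 to 26675589 per library. Scaling factors by trimmed means (TMM) were 0.739 to 0.811 in PMSC and 0.964 to 1.13 in the other groups, so that comparisons with PMSC depend most on how libraries are scaled. The fresh stellate libraries held more marker messages of other liver cells: 19 hepatocyte markers summed to 697 to 1196 CPM (counts scaled to equal library size) in PMSC and 4008 to 20460 CPM in HSC, 14 endothelial markers to 99.99 to 371 CPM in PMSC and 9588 to 11990 CPM in HSC, and 14 macrophage markers to 37.6 to 47.7 CPM in PMSC and 3204 to 11930 CPM in HSC. Vsig4, Marco and Cd163 were at 0 in every PMSC library. HSC libraries 1 and 2 stood apart, with 10510 and 9441 CPM of Alb against 2534 and 3362 CPM in the other HSC libraries, and counts that use HSC are given with and without them. In culture, hepatocyte markers summed to at most 152 CPM. Portal mesenchymal markers, 14 in all, set the fresh groups far apart, with sums of 20060 to 22990 CPM in PMSC and 535 to 921 CPM in HSC. The 15 stellate markers set them apart less, at 34240 to 49160 CPM in HSC and 20490 to 23340 CPM in PMSC. PMSC libraries thus also held much message of the stellate set.

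The glycolytic enzymes were expressed at high levels in all cultures. On the scale of TPM (transcript abundance scaled for gene length and library), the 15 enzymes together reached 8034 ± 35.5 TPM at day 3 and 7285 ± 462 TPM at day 7 of portal culture and 8527 ± 147 TPM in HSC-MF-7d, against 2220.0 ± 93.0 TPM in PMSC and 2242 ± 49.2 TPM in HSC (SD, n = 4 each). The 2 fresh groups overlapped on this summed level, and no culture library came near either of them. By mean TPM, the most abundant members in the cultures were Gapdh, Pkm, Aldoa, Ldha and Eno1. Aldoc, a brain aldolase, had the lowest mean of the members in every group but HSC, at most 0.342 TPM, and in HSC the lowest was Eno2 at 0.192 TPM.

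**Figure D1:**
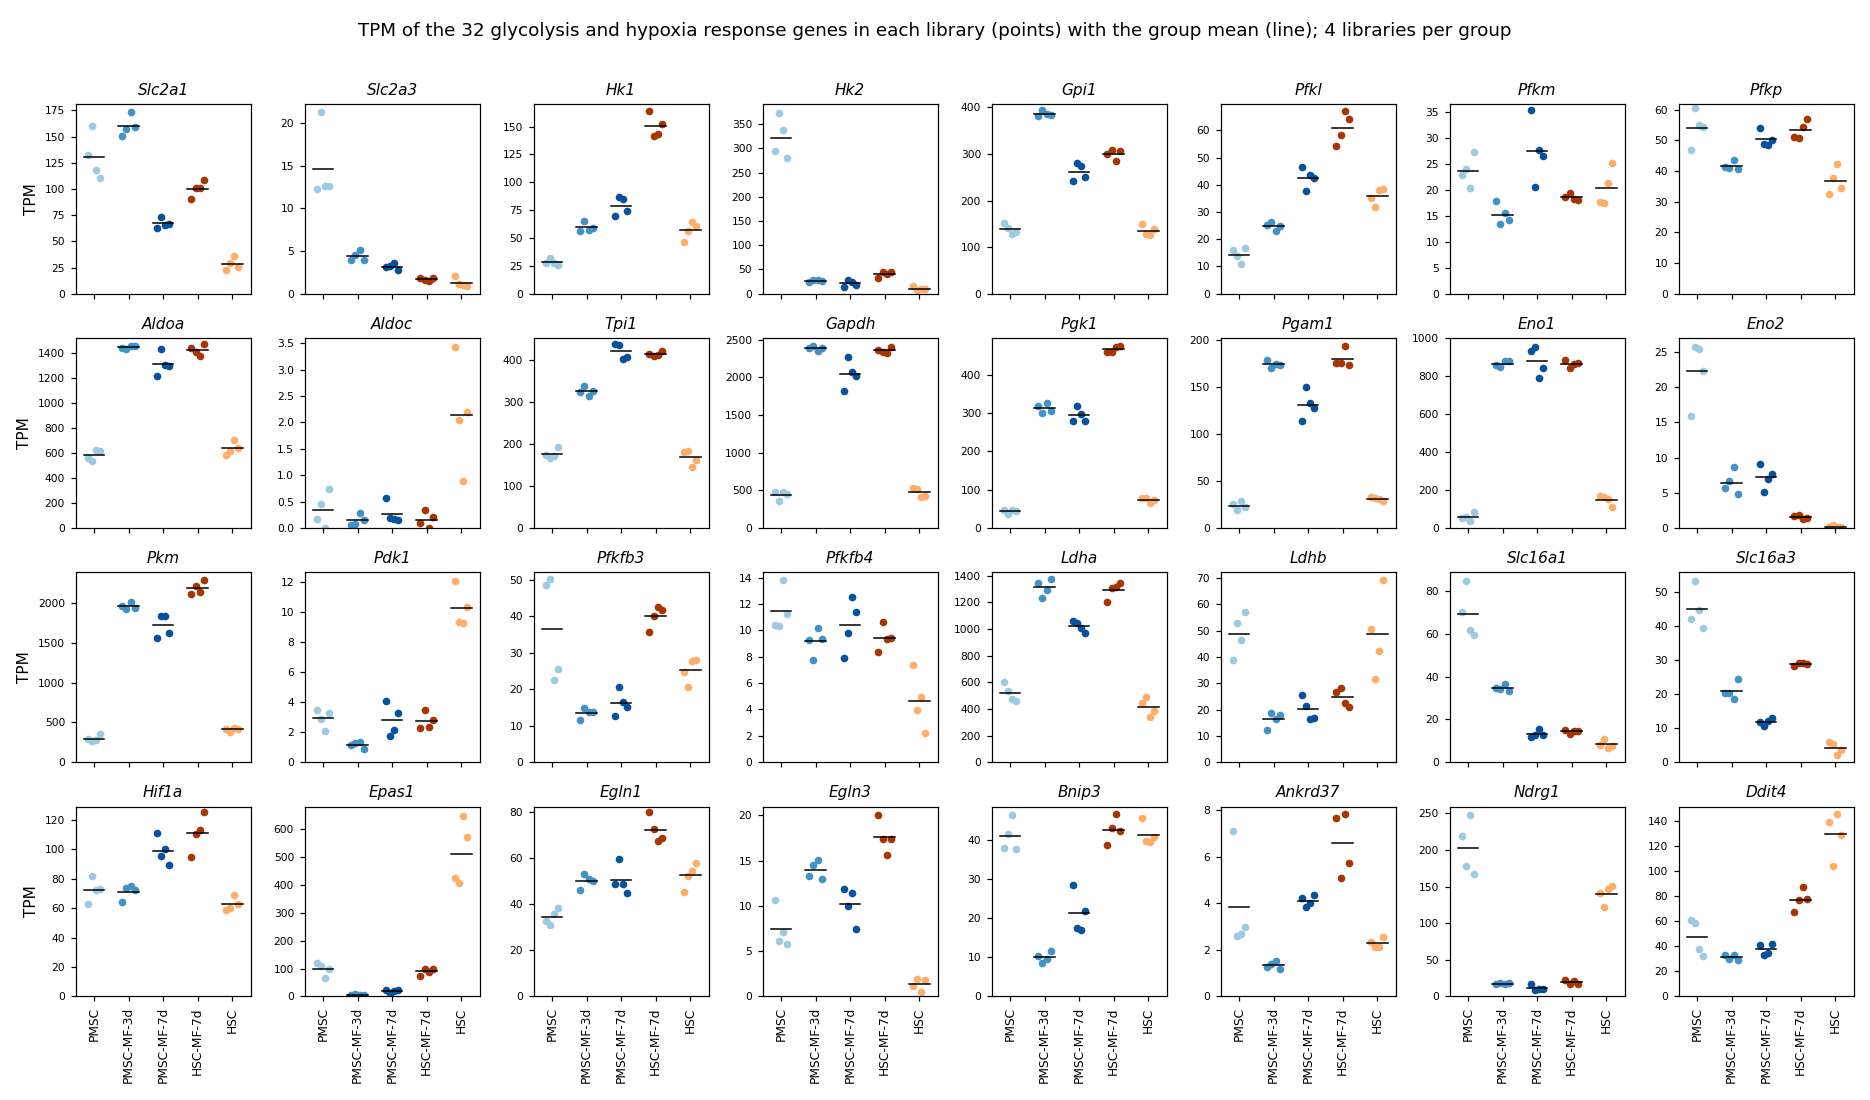
Level of each of the 32 genes in TPM (linear axes from 0, a separate scale for each gene) in the 4 libraries of PMSC, PMSC-MF-3d, PMSC-MF-7d, HSC-MF-7d and HSC; points are libraries and lines are group means. Gapdh, Pkm, Pgk1 and Eno1 sat high in all 12 culture libraries, Hk2 and Slc16a1 sat highest in PMSC, and Epas1 sat highest in HSC.

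After 7 days, portal myofibroblasts expressed most hypoxia-linked members at lower levels than stellate myofibroblasts. In PMSC-MF-7d against HSC-MF-7d, 3 of 32 members were higher, 16 were lower and 13 did not pass the test, where 23.9% of all 14751 tested genes were higher and 23.1% lower (edgeR quasi-likelihood test, Benjamini-Hochberg adjusted p under 0.05). The members' median log2 fold change was -0.33, against 0 for all tested genes. Every portal library lay above every stellate library for 3 members and below for 17, against 26.6% and 25.6% of all genes (52.2% in either direction). In bulk RNA, fewer cells of a type and less RNA per cell cannot be told apart.

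The HIF alpha subunits parted. Epas1, which encodes HIF-2 alpha, had 23.0, 12.6, 18.8 and 23.2 TPM in PMSC-MF-7d, against 74.8, 97.2, 88.8 and 100.1 TPM in HSC-MF-7d. All portal libraries were far below all stellate libraries. The log2 fold change was -2.19 ± 0.22 (SE), the lowest of the 32 members, with an edgeR adjusted p of 1.03e-07. Hif1a, which encodes HIF-1 alpha, had 111.2, 95.4, 99.8 and 89.3 TPM in PMSC-MF-7d and 94.9, 110.01, 113.1 and 125.6 TPM in HSC-MF-7d. These libraries overlapped, and the log2 difference of -0.13 ± 0.08 did not pass the test (edgeR adjusted p = 0.197). Both hydroxylases, Egln1 and Egln3, were lower in portal cultures, by log2 fold changes of -0.49 ± 0.09 and -0.77 ± 0.24, at edgeR adjusted p of 0.000202 and 0.0125.

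Of the 4 other hypoxia-induced genes, 3 were lower in PMSC-MF-7d. Bnip3, a mitochondrial protein of mitophagy, had 28.7, 17.5, 17.1 and 21.8 TPM in PMSC-MF-7d, against 38.8, 43.0, 46.7 and 42.4 TPM in HSC-MF-7d. The groups did not overlap, and the log2 fold change was -0.99 ± 0.14 (edgeR adjusted p = 1e-05). Ddit4, an inhibitor of mTORC1 signalling, was lower by -1.02 ± 0.17, and Ndrg1, a stress-responsive gene that limits growth, by -0.73 ± 0.16, at edgeR adjusted p of 5.06e-05 and 0.000764. Ankrd37, a HIF target of little known function, had 3.84 to 4.35 TPM in PMSC-MF-7d, below the 5.10 to 7.81 TPM in HSC-MF-7d, but its log2 difference of -0.67 ± 0.34 did not pass the test (edgeR adjusted p = 0.122). It passed with limma on log2(TPM + 1) (adjusted p = 0.0292) and when only these groups were fitted (edgeR adjusted p = 0.0486).

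At the ends of the pathway, the direction differed between related transporters. Slc2a1, which encodes the glucose transporter GLUT1, had 62.7, 73.7, 65.8 and 66.3 TPM in PMSC-MF-7d, against 90.8, 101.2, 101.3 and 108.2 TPM in HSC-MF-7d. Slc2a3, which encodes the higher-affinity GLUT3, had 3.12, 3.19, 3.62 and 2.80 TPM in PMSC-MF-7d, against 1.78, 1.64, 1.46 and 1.78 TPM in HSC-MF-7d. GLUT1 messages were thus lower and GLUT3 messages higher in every portal library, with log2 fold changes of -0.56 ± 0.13 and 0.95 ± 0.23 at edgeR adjusted p of 0.00118 and 0.00215. Slc16a3, which encodes the lactate exporter MCT4, had 11.8, 10.6, 12.2 and 13.1 TPM in PMSC-MF-7d, against 28.2, 29.3, 29.3 and 28.9 TPM in HSC-MF-7d. The stellate libraries lay close to one another and above all portal libraries, with a difference of -1.24 ± 0.20 on the log2 scale (edgeR adjusted p = 4.46e-05). Slc16a1, which encodes MCT1, a transporter of lactate in either direction, overlapped between the groups at 11.96 to 15.3 TPM in PMSC-MF-7d and 13.4 to 15.0 TPM in HSC-MF-7d.

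Among the 15 enzymes, 2 were higher in PMSC-MF-7d, 6 were lower and 7 did not pass the test. Of all tested genes, 23.9% were higher and 23.1% lower. Eno2, the enolase known from neurons, had 9.03, 5.15, 6.91 and 7.73 TPM in PMSC-MF-7d, against 1.67, 1.86, 1.28 and 1.43 TPM in HSC-MF-7d. It was higher in all portal libraries, with the largest log2 fold change of the members at 2.27 ± 0.25 (edgeR adjusted p = 3.12e-07), at a level far below that of Eno1. Pfkm, the muscle phosphofructokinase, was the other enzyme that was higher, at 20.5 to 35.5 TPM in PMSC-MF-7d and 18.1 to 19.4 TPM in HSC-MF-7d. The hexokinases that trap glucose in the cell, Hk1 and Hk2, were both lower, by log2 fold changes of -0.90 ± 0.10 and -0.89 ± 0.21 at edgeR adjusted p of 4.09e-07 and 0.00171. Pgk1, which makes ATP from bisphosphoglycerate, had 278.1, 316.9, 298.2 and 279.8 TPM in PMSC-MF-7d, against 459.4, 458.9, 470.8 and 473.4 TPM in HSC-MF-7d. No libraries overlapped, and the log2 fold change was -0.65 ± 0.09 (edgeR adjusted p = 6.47e-06).

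Smaller differences in the same direction passed the test for Pfkl, the liver phosphofructokinase (-0.49), Pgam1, phosphoglycerate mutase (-0.43), and Pkm, pyruvate kinase (-0.33). Ldha, the lactate dehydrogenase subunit favoured in glycolytic cells, had a log2 fold change of -0.32 ± 0.12 at an edgeR adjusted p of 0.0312, but not with upper-quartile scaling, where its adjusted p was 0.0705. It also missed the threshold when PMSC-MF-7d library 1, 3 or 4 or HSC-MF-7d library 2, 3 or 4 was left out, with adjusted p of 0.0588 to 0.0785. Gapdh, Aldoa, Tpi1, Gpi1, Eno1, Pfkp and Aldoc did not pass the test, with log2 differences of -0.19 to 0.69. Gpi1, however, was lower with DESeq2 (adjusted p = 0.0408) and with limma on log2(TPM + 1) (adjusted p = 0.0245). When only these groups were fitted, Gpi1 and Gapdh were both lower (edgeR adjusted p = 0.034 and 0.042). Of the flux regulators, Pfkfb3, whose product raises the activator of phosphofructokinase, was lower by -1.27 ± 0.22 (edgeR adjusted p = 6.94e-05), with 12.7, 20.5, 16.4 and 15.1 TPM in PMSC-MF-7d and 35.8, 40.03, 42.5 and 41.7 TPM in HSC-MF-7d. Its relative Pfkfb4 and the pyruvate dehydrogenase kinase Pdk1 did not pass, at 0.17 ± 0.24 and 0.06 ± 0.24.

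Cell markers also differed between these cultures. The 8 myofibroblast markers summed to 24040 to 27130 CPM in PMSC-MF-7d and 10540 to 12550 CPM in HSC-MF-7d, and 8 proliferation markers to 783 to 916 CPM in PMSC-MF-7d and 369.9 to 430.2 CPM in HSC-MF-7d. Stellate markers summed to 1014 to 1532 CPM in PMSC-MF-7d and 3402 to 3937 CPM in HSC-MF-7d, and macrophage markers to 14.5 to 18.3 CPM in PMSC-MF-7d and 35.6 to 66.4 CPM in HSC-MF-7d. Endothelial markers summed to 144 to 329 CPM in PMSC-MF-7d and 236 to 291 CPM in HSC-MF-7d. These sums overlapped, but 10 of the 14 genes were lower and 0 higher. Of 6 cholangiocyte markers, 4 were lower and 1 higher. Among all genes, 23.1% were lower and 23.9% higher. The part of these cell types in the results, that of Epas1 included, was not tested. Several members overlap exons of genes on the other strand, among them Hif1a, Bnip3, Slc2a1, Ndrg1 and Ankrd37, and no source used here says whether counting used strand. The expected counts of these genes had a decimal in 0 libraries. Those of Eno1, which shares reads with its near-identical copy Eno1b, had one in 19. Whether reads of the overlapping pairs were shared was not tested further.

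**Figure D2:**
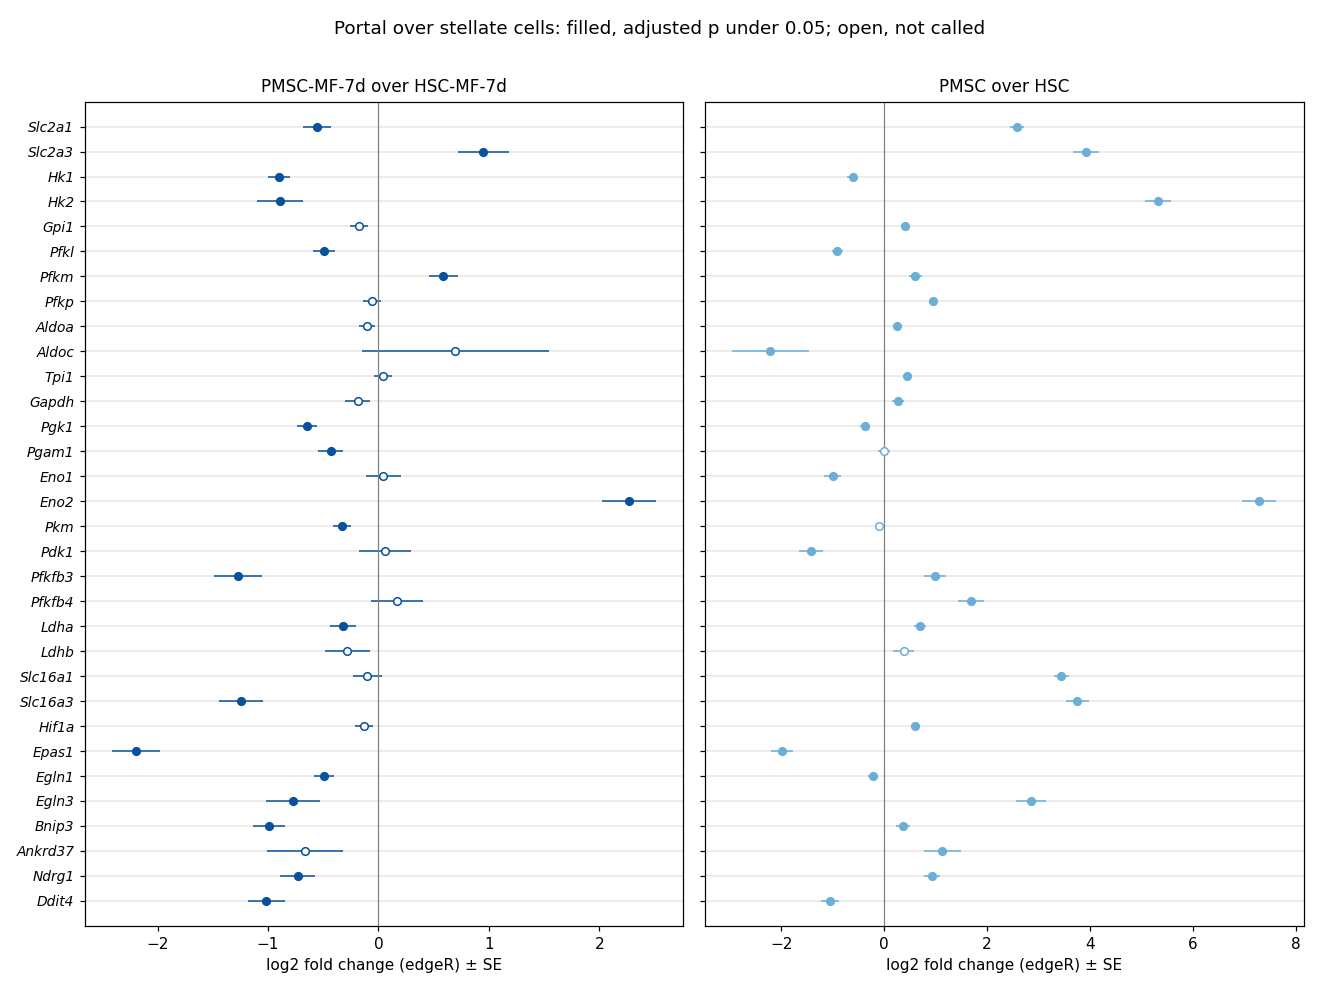
Log2 fold changes with their standard errors (horizontal axis, edgeR) for the 32 genes in PMSC-MF-7d over HSC-MF-7d (left) and PMSC over HSC (right); filled points passed the adjusted p threshold of 0.05 and open points did not. Epas1 lay far left and Eno2 far right in the cultures, while Hk2 and Eno2 lay far right in the fresh cells.

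The portal cultures of day 3, set against the same stellate libraries, had more message of both glucose transporters and of Slc16a1 and less of several hypoxia-linked genes. Because the stellate libraries are shared, the day 3 and day 7 comparisons are not independent. In PMSC-MF-3d against HSC-MF-7d, 5 members were higher, 13 were lower and 14 did not pass the test, where 27.2% of all genes were higher and 27.4% lower (54.6% together), and the members' median was -0.22 against 0. Every portal library was above every stellate library for 8 members and below for 16, against 31.4% and 30.3% of all genes. Slc2a1 had 150.4, 157.25, 173.8 and 159.4 TPM in PMSC-MF-3d, against 90.8, 101.2, 101.3 and 108.2 TPM in HSC-MF-7d. It was higher in all portal libraries by a difference of 0.80 ± 0.13 on the log2 scale (edgeR adjusted p = 2.44e-05), the opposite direction to day 7. Slc2a3 was higher by 1.51 ± 0.23 and Slc16a1 by 1.39 ± 0.14. Slc16a1 had 33.0 to 36.3 TPM in PMSC-MF-3d and 13.4 to 15.0 TPM in HSC-MF-7d.

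Eno2 was higher by 2.22 ± 0.25 and Gpi1, glucose phosphate isomerase, by 0.49 ± 0.08. Epas1 had 4.36, 8.48, 7.09 and 6.10 TPM in PMSC-MF-3d, against 74.8, 97.2, 88.8 and 100.1 TPM in HSC-MF-7d. The portal libraries held the lowest Epas1 of all groups, at a difference of -3.67 ± 0.23 on the log2 scale (edgeR adjusted p = 1.91e-10). Ankrd37 (-2.17 ± 0.37), Bnip3 (-1.97 ± 0.15), Pfkfb3 (-1.47 ± 0.22), Hk1 (-1.21 ± 0.10), Ddit4 (-1.19 ± 0.17), Pfkl (-1.16 ± 0.10) and Pdk1 (-1.09 ± 0.24) were also lower on the log2 scale. Pgk1, Egln1 and Hif1a were lower by less, at -0.46, -0.41 and -0.50. Pfkp and Tpi1 had log2 fold changes of -0.23 each, at edgeR adjusted p of 0.0185 and 0.0255, and did not keep the call under every scaling or with every library left out. Pkm, Ldha, Gapdh, Aldoa, Pgam1 and Eno1 did not pass the test, with log2 differences between -0.04 and 0.14. Of these, Ldha, Gapdh, Aldoa and Eno1 were higher when only these groups were fitted (edgeR adjusted p = 0.00685 to 0.0177).

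Before culture, portal cells held far more Hk2, Eno2 and transporter messages than stellate cells, and less Epas1. In PMSC against HSC, 20 members were higher, 9 were lower and 3 did not pass the test, where 33.6% of all genes were higher and 40.1% lower. The members' median was 0.42, against -0.10 for all genes, and no libraries overlapped for 18 members above and 7 below, against 27.9% and 33.4% of all genes (61.2% in either direction). Without HSC libraries 1 and 2, an alternative chosen after seeing the data, 19 were higher and 8 lower. With libraries scaled by their totals alone, 13 were higher and 11 lower, while the median of all genes moved to -0.44 and that of the members to 0.08. The members lay 0.52 above all genes under either scaling. Scaling moves all genes by nearly the same amount, so this gap could hardly change. The share of higher among all calls was 45.6% with TMM and 33.3% with totals.

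Hk2, the inducible hexokinase, had 295.2, 373.9, 338.5 and 279.3 TPM in PMSC, against 16.02, 7.93, 9.72 and 8.63 TPM in HSC. Every portal library exceeded every stellate library and the log2 fold change was 5.31 ± 0.25 (edgeR adjusted p = 5.7e-13). Eno2 had 15.95, 25.7, 25.4 and 22.3 TPM in PMSC, against 0.11, 0.39, 0.16 and 0.11 TPM in HSC. It was very low in stellate cells, and its log2 fold change of 7.29 ± 0.33 was the largest of the members (edgeR adjusted p = 2.8e-13). Slc2a1 had 132.1, 160.15, 117.9 and 110.2 TPM in PMSC, against 22.3, 29.5, 36.1 and 25.9 TPM in HSC. It was higher in every portal library, by 2.58 ± 0.13 on the log2 scale (edgeR adjusted p = 1.87e-12), and Slc2a3 by 3.92 ± 0.25. Both lactate transporters were higher too, Slc16a3 by 3.75 ± 0.23 and Slc16a1 by 3.44 ± 0.15, and so was Egln3, at 2.85 ± 0.29.

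The other calls of higher members were Pfkfb4 (1.69), Ankrd37 (1.13), Pfkfb3 (0.99), Pfkp (0.95), Ndrg1 (0.93), Ldha (0.70), Pfkm (0.61), Hif1a (0.60), Tpi1 (0.44), Gpi1 (0.41), Bnip3 (0.36), Gapdh (0.27) and Aldoa (0.24), all as log2 fold changes. Calls of Ankrd37, Pfkm, Tpi1, Gpi1, Bnip3, Gapdh and Aldoa were lost with library totals, and those of Gapdh and Aldoa changed sign, to -0.07 for Gapdh and -0.09 for Aldoa. Ankrd37 was also lost without PMSC library 1, at 0.61 with an edgeR adjusted p of 0.102. Leaving out 1 library lost the call of Gapdh for PMSC libraries 1, 3 and 4 and HSC libraries 3 and 4 (adjusted p = 0.0562 to 0.162), and that of Bnip3 for PMSC library 3 and HSC libraries 2, 3 and 4 (0.0506 to 0.0887). The 13 other higher calls held under TMM, totals, relative log expression and upper-quartile scaling, but with limma on log2(TPM + 1) those of Hif1a (0.20, adjusted p = 0.0643) and Pfkfb3 (0.44, adjusted p = 0.0567) were lost.

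Lower in PMSC were Epas1, Ddit4, Pdk1, Pfkl, Hk1, Pgk1, Eno1, Aldoc and Egln1. Epas1 had 120.7, 108.4, 65.6 and 98.5 TPM in PMSC, against 424.6, 405.0, 648.2 and 570.6 TPM in HSC. The groups were far apart, with a difference of -1.98 ± 0.21 on the log2 scale (edgeR adjusted p = 8.51e-08). Epas1 is also abundant in endothelial cells, whose markers were high in HSC as given above, and their part in this result was not tested. Pdk1, the pyruvate dehydrogenase kinase, was lower by -1.42 ± 0.23, Ddit4 by -1.05 ± 0.17, Pfkl by -0.91 ± 0.11 and Hk1 by -0.62 ± 0.10. Eno1, the main enolase, was lower by -0.9997 ± 0.16, but its reads are shared with the near-identical Eno1b. Eno1b took 34.1% to 67.0% of the summed TPM of both in PMSC and 13.8% to 38.5% in HSC. With both summed, an alternative chosen after seeing the data, the log2 fold change was -0.49 (edgeR adjusted p = 0.00104). Aldoc had a log2 fold change of -2.21 ± 0.74 at an adjusted p of 0.0112, which was 0.114 without HSC libraries 1 and 2, and Egln1 (-0.22) was lost under relative log expression and upper-quartile scaling and without PMSC library 1 or 2 or HSC library 2, 3 or 4 (adjusted p = 0.0640 to 0.458). The call of Pgk1 was lost when only these groups were fitted (-0.28, edgeR adjusted p = 0.0847). Pgam1, Pkm and Ldhb did not pass the test. With library totals, however, Pkm (-0.44, adjusted p = 8.88e-05) and Pgam1 (-0.35, adjusted p = 0.0135) were lower in PMSC, as they were with limma (-0.49 and -0.39), and Ldhb was higher without HSC library 4 (0.56, adjusted p = 0.0151).

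Dissociation stress genes, 12 in all, summed to 19400 to 32760 CPM in PMSC and 14600 to 25290 CPM in HSC, and to at most 1035 CPM in any culture. Their part in the fresh comparison was not tested.

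In culture the portal cells had more message of most core enzymes and less of Hk2, the transporters and some hypoxia-linked genes, among them Epas1, Bnip3 and Ndrg1. In PMSC-MF-7d against PMSC, 11 members rose, 15 fell and 6 did not pass the test, where 38.1% of all genes rose and 39% fell (77% together), and the members' median was -0.47 against -0.0019 for all genes. Every culture library was above every fresh library for 11 members and below for 13, against 34.1% and 32.6% of all genes (66.7% in either direction). By day 3 (PMSC-MF-3d against PMSC) 11 had risen and 17 had fallen, where 37.2% of all genes rose and 41.1% fell (78.3% together), and no libraries overlapped for 11 members above and 17 below, against 34.5% and 35.6% of all genes (70.1% in either direction). With library totals these counts were 13 and 11 at day 7 and 14 and 15 at day 3, and the share of higher among all calls was 49.4% with TMM and 63.5% with totals at day 7, and 47.5% with TMM and 61.7% with totals at day 3. Proliferation markers summed to 11.2 to 28.2 CPM in PMSC, 822 to 942 CPM at day 3 and 783 to 916 CPM at day 7, portal mesenchymal markers to 20060 to 22990, 3754 to 4221 and 6072 to 7904 CPM in the same order, and stellate markers to 20490 to 23340, 1061 to 1191 and 1014 to 1532 CPM. Their part in these changes was not tested. All 11 rises of each comparison kept the call under every alternative run.

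Pkm had 289.4, 263.8, 277.2 and 350.7 TPM in PMSC, then 1971, 1924, 2015 and 1935 TPM in PMSC-MF-3d, with 1567, 1840.1, 1844 and 1628 TPM by day 7 in PMSC-MF-7d. Every culture library was far above every fresh one, with log2 fold changes of 2.36 ± 0.08 at day 3 and 2.07 ± 0.08 at day 7 (edgeR adjusted p = 4.21e-15 and 2.31e-14). Eno1 (3.46), Pgk1 (2.27), Pgam1 (1.98), Gapdh (1.74), Pfkl (1.07), Hk1 (0.997), Tpi1 (0.78), Aldoa (0.70), Ldha (0.49) and Gpi1 (0.44) also rose by day 7, as log2 fold changes. The rise of Eno1 was 3.21 with Eno1b summed. Thus 10 of 15 enzymes rose by day 7, 3 fell and 2 did not pass.

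Hk2 had 295.2, 373.9, 338.5 and 279.3 TPM in PMSC, then 24.8, 28.8, 27.8 and 26.7 TPM in PMSC-MF-3d, with 14.5, 28.9, 24.5 and 18.1 TPM in PMSC-MF-7d. It fell in every culture library, by log2 fold changes of -3.96 ± 0.23 and -4.38 ± 0.24 at day 3 and day 7 (edgeR adjusted p = 6.66e-12 and 2.31e-12). Ndrg1 had 218.6, 177.5, 247.3 and 167.6 TPM in PMSC, then 17.3, 17.9, 16.96 and 18.3 TPM in PMSC-MF-3d, with 16.4, 9.17, 10.3 and 10.5 TPM in PMSC-MF-7d. Its fall of -4.62 ± 0.17 by day 7 was the largest among the members (edgeR adjusted p = 1.16e-14). Slc16a1 (-2.87), Epas1 (-2.82), Slc2a3 (-2.68), Slc16a3 (-2.37), Eno2 (-2.10), Ldhb, the lactate dehydrogenase subunit of oxidative tissues (-1.76), Pfkfb3 (-1.70), Slc2a1 (-1.44) and Bnip3 (-1.43) also fell by day 7. Ddit4, Pfkfb4, Pfkp and Pdk1 fell by 0.82, 0.62, 0.59 and 0.55 on the log2 scale, calls that did not hold under every scaling. The call of Pdk1 was also lost without any 1 of PMSC libraries 1 and 4 and PMSC-MF-7d libraries 2 and 3 (adjusted p = 0.0722 to 0.168), and that of Pfkfb4 without PMSC library 3 or PMSC-MF-7d library 1 or 2 (0.0585 to 0.0942). Hif1a did not pass at -0.03 ± 0.08 with TMM, but was 0.44 with library totals (edgeR adjusted p = 5.98e-05).

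Between the portal times, 9 members rose and 10 fell, where 18.6% and 17.4% of all genes did (36% together). No libraries overlapped for 9 members above and 12 below, against 20.5% and 21.3% of all genes (41.9% in either direction). The HIF subunits and 2 of the 4 other hypoxia-induced genes rose, while Slc16a1, Slc2a1 and Slc16a3 fell. Epas1 rose by a log2 fold change of 1.48 ± 0.22 in PMSC-MF-7d against PMSC-MF-3d, Ankrd37 by 1.505 ± 0.36, Pdk1 by 1.15 ± 0.24, Bnip3 by 0.98 ± 0.15 and Hif1a by 0.37 ± 0.08 (edgeR adjusted p = 3.14e-05, 0.0031, 0.000937, 3.44e-05 and 0.00172). Bnip3 had 28.7, 17.5, 17.1 and 21.8 TPM in PMSC-MF-7d, against 10.3, 8.64, 9.58 and 11.6 TPM in PMSC-MF-3d. All day 7 libraries lay above all day 3 libraries. Slc16a1 fell by 1.49 ± 0.14, Slc2a1 by 1.35 ± 0.13, Slc16a3 by 0.92 ± 0.20 and Gpi1 by 0.66 ± 0.08 on the log2 scale. Smaller changes of Hk1 (0.31), Tpi1 (0.27), Aldoa (-0.24) and Gapdh (-0.33) each missed the threshold when 1 of some libraries was left out, among them PMSC-MF-3d library 3 for Hk1 and Tpi1 and PMSC-MF-7d library 1 for Aldoa and Gapdh (adjusted p = 0.0569, 0.0567, 0.0666 and 0.110).

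**Figure D3:**
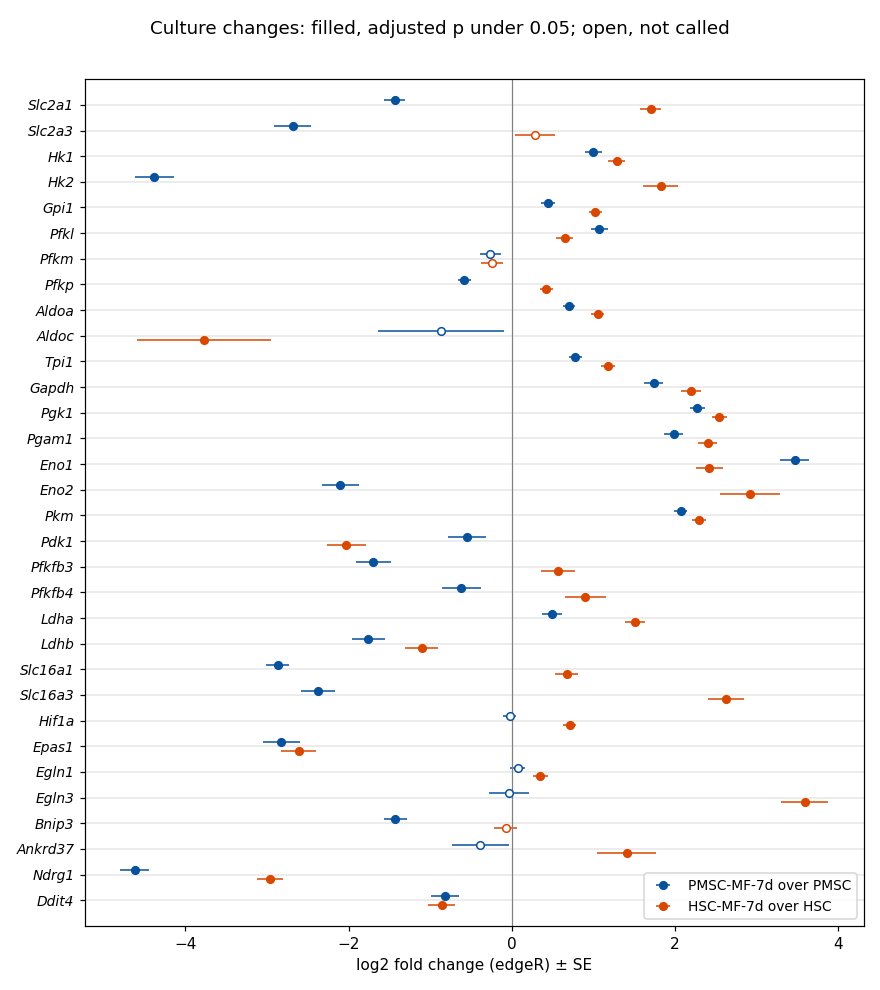
Log2 fold changes with their standard errors (horizontal axis, edgeR) of the 32 genes for PMSC-MF-7d over PMSC (blue) and HSC-MF-7d over HSC (orange); filled points passed the adjusted p threshold of 0.05 and open points did not. Pgk1, Pkm, Gapdh, Pgam1 and Eno1 lay far right in both, whereas Hk2, Eno2, Slc16a3, Slc2a1 and Egln3 lay right of 0 in stellate cells and left of it or near it in portal cells.

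In stellate cells, culture raised most members. In HSC-MF-7d against HSC, 23 members rose, 6 fell and 3 did not pass the test, where 36% of all genes rose and 38.5% fell (74.5% together), and the median was 0.96 against -0.03. No libraries overlapped for 23 members above and 7 below, against 34.9% and 36.5% of all genes (71.3% in either direction). The counts were 23 and 6 under every scaling tried and 23 and 7 without HSC libraries 1 and 2. Slc16a3 had 28.2, 29.3, 29.3 and 28.9 TPM in HSC-MF-7d, against 5.96, 5.41, 2.07 and 3.65 TPM in HSC. All cultures were above all fresh libraries, with a difference of 2.62 ± 0.22 on the log2 scale (edgeR adjusted p = 1.98e-09). Egln3 had 20, 17.4, 15.7 and 17.4 TPM in HSC-MF-7d, against 1.13, 1.89, 0.54 and 1.84 TPM in HSC. Its log2 fold change of 3.59 ± 0.29 was the largest of the members in this comparison (edgeR adjusted p = 8.02e-10).

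Eno2 (2.92), Pgk1 (2.54), Eno1 (2.42), Pgam1 (2.40), Pkm (2.29), Gapdh (2.19), Hk2 (1.82), Slc2a1 (1.70) and Ldha (1.51) rose with culture in stellate cells by log2 fold changes and 13 of the 15 enzymes rose in all. The 6 members that fell were Aldoc (-3.78), Ndrg1 (-2.96), Epas1 (-2.61), Pdk1 (-2.03), Ldhb (-1.11) and Ddit4 (-0.86). Slc2a3, Pfkm and Bnip3 did not pass the test, but Slc2a3 did without HSC library 1, at 0.65 (edgeR adjusted p = 0.0125). The rise of Pfkfb3 (0.56, edgeR adjusted p = 0.0222) missed the threshold without HSC library 2, at an adjusted p of 0.0604. Hepatocyte, endothelial and macrophage markers were far lower in HSC-MF-7d than in HSC, with endothelial markers summing to 236 to 291 CPM and macrophage markers to 35.6 to 66.4 CPM in HSC-MF-7d, and their part in these changes was not tested.

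The 2 cell types differed in how culture changed these genes, and the difference was tested in the same model. It shares no library between its 2 parts. The same quantity is the difference between the day 7 cultures minus that between the fresh cells, so it is not independent of those comparisons. Messages of other liver cells in HSC enter it as well, and their part was not tested. The culture change of portal cells minus that of stellate cells was lower for 20 members, higher for 4 and did not pass for 8, where 29.2% of all genes were lower and 31.4% higher (60.6% together), and the members' median was -0.62 against 0.10. With library totals the counts were 15 lower and 4 higher, and without HSC libraries 1 and 2 they were 21 lower and 3 higher. The share of higher among all calls was 51.8% with TMM and 66% with totals. Hk2 (-6.20 ± 0.32), Eno2 (-5.02 ± 0.42), Slc16a3 (-5.00 ± 0.30), Egln3 (-3.62 ± 0.37), Slc16a1 (-3.54 ± 0.20), Slc2a1 (-3.14 ± 0.18) and Slc2a3 (-2.97 ± 0.33) had the lowest log2 values. Pkm and Pgk1 did not pass, at -0.22 ± 0.11 and -0.27 ± 0.13, and neither did Epas1, at -0.21 ± 0.29, which fell in both cell types. Pgk1 and Pkm passed without PMSC library 2, at -0.46 and -0.39 (edgeR adjusted p = 0.00362 and 0.00501), as did Pgk1 without PMSC-MF-7d library 2 or HSC library 2 (0.0495 and 0.0440). Both passed with relative log expression (adjusted p = 0.0262 for Pgk1 and 0.0232 for Pkm) and DESeq2 (0.0164 and 0.00615), and turned to 0.07 for Pgk1 and 0.11 for Pkm with library totals. Eno1 (1.04), Pdk1 (1.48), Pfkl (0.42) and Aldoc (2.91) were higher. Eno1 was 0.58 with Eno1b summed (adjusted p = 0.00535), Pfkl was lost without PMSC library 2 (adjusted p = 0.114), and Aldoc was lost without library 1 of PMSC, PMSC-MF-7d, HSC-MF-7d or HSC or library 3 of HSC-MF-7d (0.0571 to 0.0982). The calls of Aldoa, Gapdh, Gpi1, Pgam1 and Tpi1, all lower, did not hold under every scaling.

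**Figure D4:**
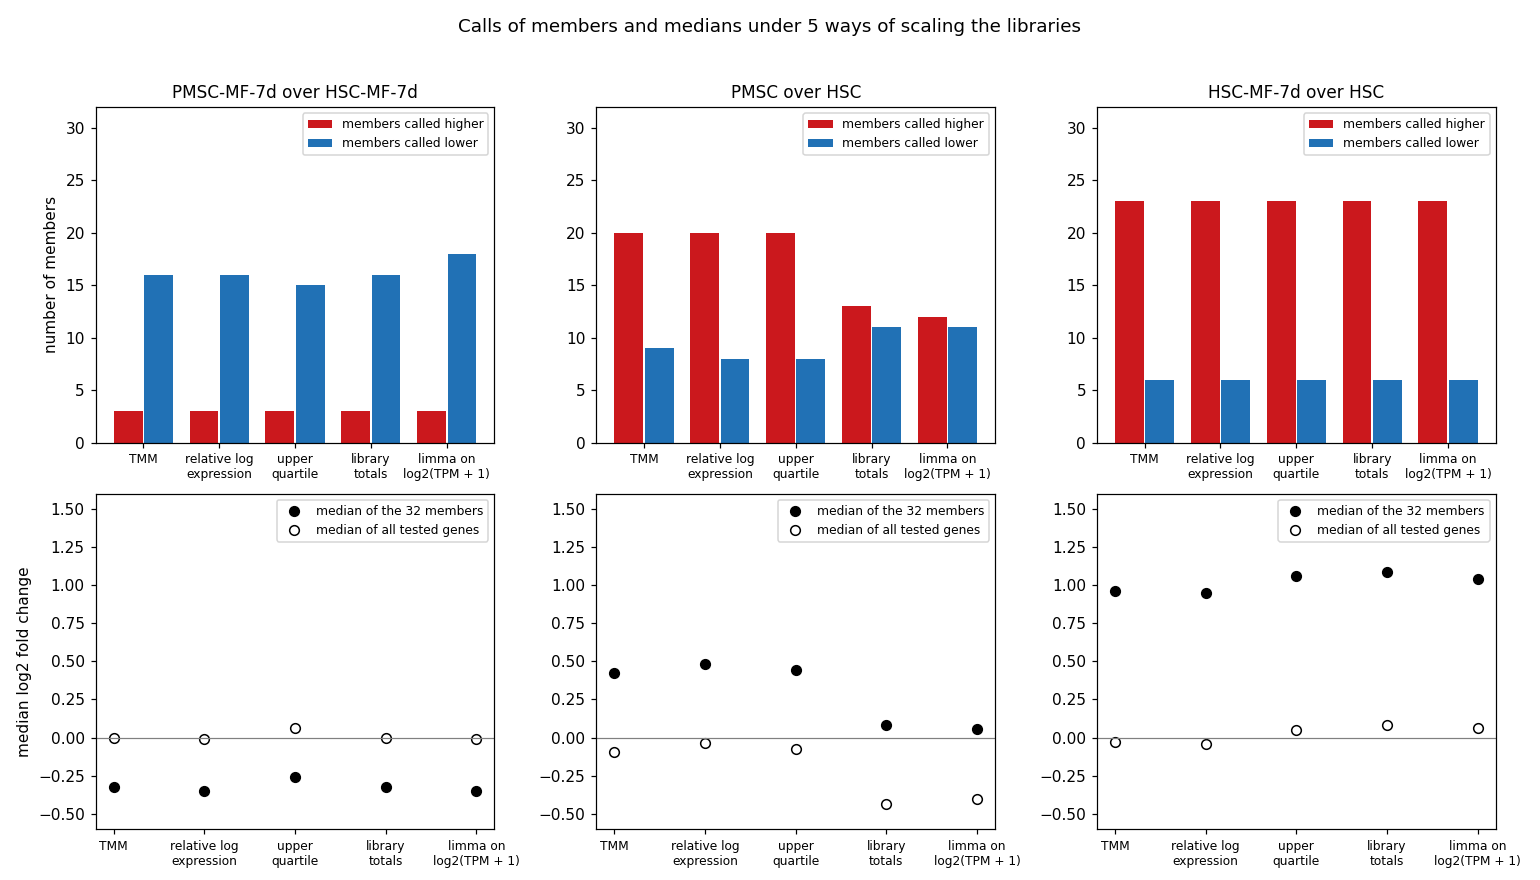
Number of the 32 genes called higher or lower (upper row, bars from 0) and median log2 fold change of the 32 genes and of all tested genes (lower row) under 5 ways of scaling libraries, for PMSC-MF-7d over HSC-MF-7d, PMSC over HSC and HSC-MF-7d over HSC. In the fresh comparison the calls changed to 13 higher and 11 lower with library totals and 12 and 11 with limma on log2(TPM + 1), while the counts in both other comparisons stayed near 3 and 16 and at 23 and 6.

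Direction depended on scaling where PMSC entered and little elsewhere. In PMSC-MF-7d against HSC-MF-7d, 3 members were higher under all 5 scalings and 15 to 18 were lower, and all calls but that of Ldha held. In PMSC-MF-3d against HSC-MF-7d, 5 were higher under all 5 and 11 to 16 were lower. In PMSC against HSC, the members exceeded the median of all genes by 0.46 to 0.52 log2 units under the 5 scalings, while their own median ran between 0.06 and 0.48. Since scaling moves all genes nearly alike, the steadiness of that excess is no check of it.

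Ratios of related genes within a library do not depend on scaling. For 12 pairs of isozymes or relatives in 6 comparisons, 47 of 72 exact two-sided permutation tests passed at an adjusted p of 0.0438, where 0.0286 is the smallest p that 4 against 4 libraries allow. The share among other pairs of genes was not computed. Taken singly, 41.9% to 71.3% of all tested genes had libraries that did not overlap in these 6 comparisons, so the count does not set these pairs apart from other genes. Hk2 made up 91.9% ± 0.517 of the summed TPM of Hk1 and Hk2 in PMSC, against 15.9% ± 6.49 in HSC. In culture it was 31.3% at day 3 and 21.1% at day 7 of portal culture and 21.4% in HSC-MF-7d, and the log2 ratio of Hk2 to Hk1 was -1.91 ± 0.29 in PMSC-MF-7d and -1.89 ± 0.29 in HSC-MF-7d (exact permutation p = 0.914). Eno2 was 29.0% of the summed TPM of Eno1 and Eno2 in PMSC and 0.128% in HSC. That sum leaves out Eno1b, which shares reads with Eno1, and the share of Eno2 would be lower with it. Eno1b took 34.1% to 67.0% of the summed TPM of Eno1 and Eno1b in PMSC and 13.8% to 38.5% in HSC.

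The pair of HIF subunits differed in every comparison. Epas1 was 57.0% of the summed TPM of Epas1 and Hif1a in PMSC, 8.28% by day 3 of portal culture and 16.3% by day 7, and it was 44.8% in HSC-MF-7d and 88.8% in HSC. The log2 ratio of Epas1 to Hif1a was -2.38 ± 0.40 in PMSC-MF-7d and -0.30 ± 0.08 in HSC-MF-7d (SD, n = 4 each; exact permutation p = 0.0286). Slc16a3 was 47.4% of both lactate transporters in PMSC-MF-7d and 66.8% in HSC-MF-7d, and the libraries did not overlap. Pfkfb4 was 39.3% of its pair with Pfkfb3 in PMSC-MF-7d and 19.1% in HSC-MF-7d. Ldhb had a low share in all cultures, 1.24% of both dehydrogenase subunits at day 3 and 1.93% at day 7 of portal culture and 1.88% in HSC-MF-7d, against 8.77% in PMSC and 10.7% in HSC.

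**Figure D5:**
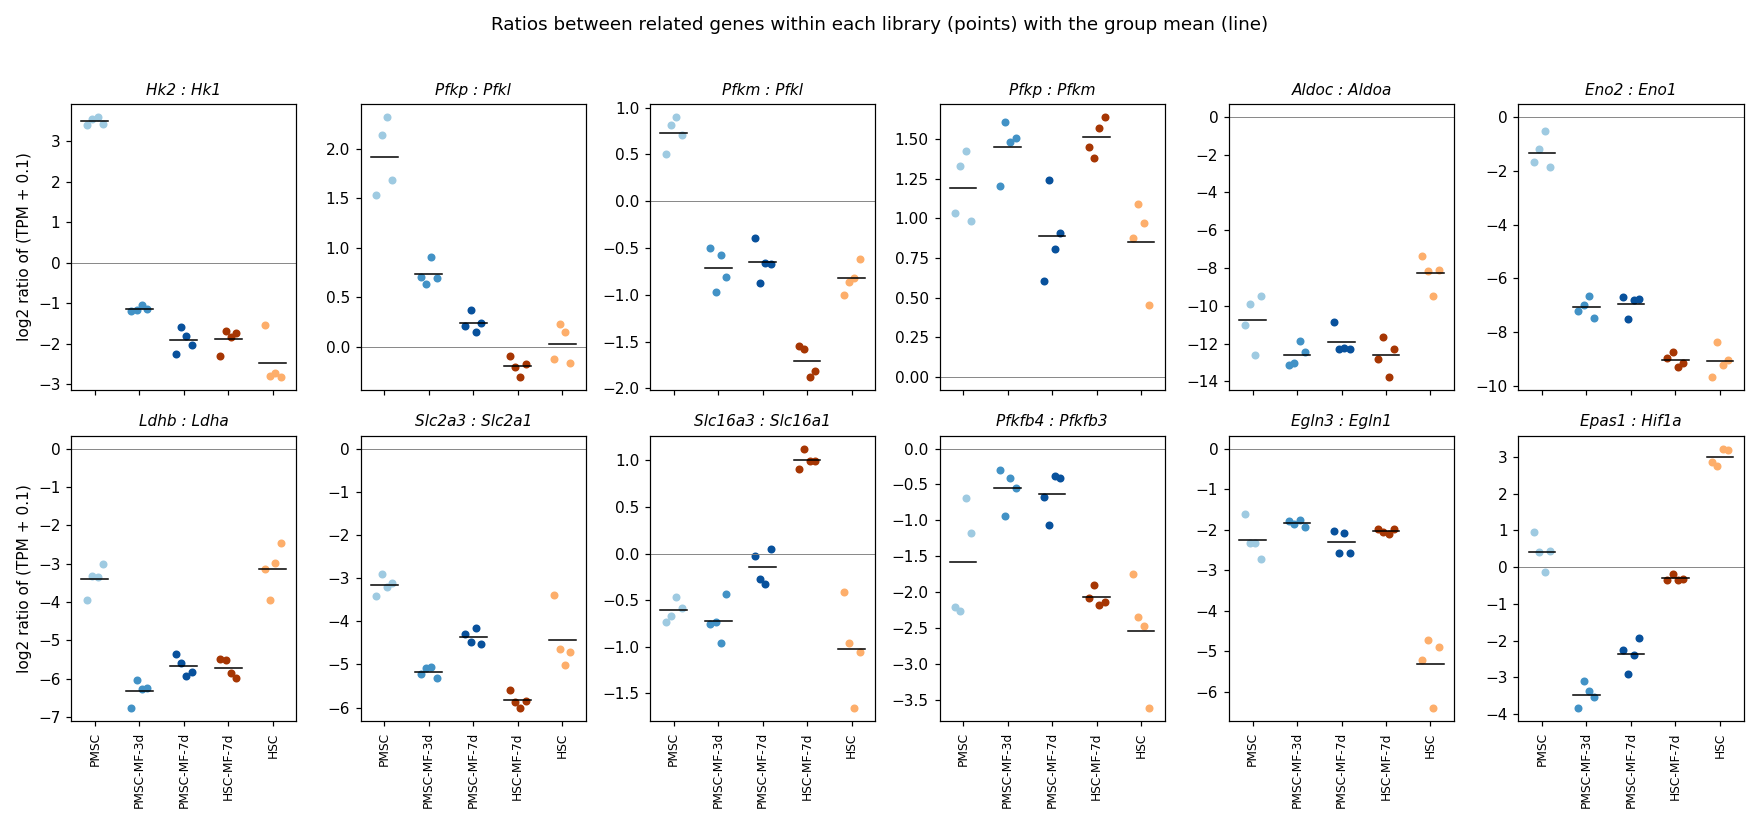
Log2 ratio of (TPM + 0.1) of 12 pairs of related genes in each library of PMSC, PMSC-MF-3d, PMSC-MF-7d, HSC-MF-7d and HSC; points are libraries and lines are group means. Hk2 exceeded Hk1 in PMSC only, and Epas1 lay below Hif1a in all cultures, lowest in PMSC-MF-3d at -3.47.

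Other genes of the same pathways were counted from lists. Of 41 further HIF pathway and target genes, 38 were tested, of which 3 were higher and 21 lower in PMSC-MF-7d against HSC-MF-7d, where 23.9% and 23.1% of all genes were, with a median log2 fold change of -0.49 against 0 for all genes. Angptl4, an inhibitor of lipoprotein lipase, averaged 26.8 ± 15.2 CPM in PMSC-MF-7d and 354.2 ± 37.4 CPM in HSC-MF-7d, at -3.72 ± 0.37 on the log2 scale (edgeR adjusted p = 1.09e-07). Trf, the iron carrier transferrin, was lower by -3.41 ± 0.41, and Hmox1, the haem-degrading oxygenase, by -1.81 ± 0.28. In PMSC against HSC, 25 of the 38 were higher and 8 lower, where 33.6% and 40.1% of all genes were, with a median of 0.93 against -0.10 for all genes. Stc2, a secreted glycoprotein, averaged 164 CPM in PMSC and 0.033 CPM in HSC, Bhlhe41, a transcriptional repressor, was higher by 4.92 ± 0.45, and Pdgfb, a growth factor made by endothelial cells, was lower by -4.02 ± 0.58. The culture change of portal minus stellate cells was lower for 28 of the 38 and higher for 2, where 29.2% and 31.4% of all genes were.

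Of 28 other glucose and pyruvate genes, 26 were tested, and of these 9 were higher and 8 lower in PMSC-MF-7d against HSC-MF-7d, where 23.9% and 23.1% of all genes were. Pdk4, a kinase that blocks pyruvate dehydrogenase, averaged 42.7 ± 17.7 CPM in PMSC-MF-7d and 224 ± 11.8 CPM in HSC-MF-7d, a log2 fold change of -2.39 ± 0.25, whereas its relative Pdk3 was higher by 1.07 ± 0.11 and the pyruvate and lactate transporter Slc16a7 by 2.18 ± 0.24. In PMSC against HSC, 8 were higher and 7 lower, where 33.6% and 40.1% of all genes were, led by Hk3, a hexokinase of myeloid cells, at -6.73 ± 0.61. Of 10 pentose phosphate genes, 2 were higher and 4 lower in PMSC-MF-7d against HSC-MF-7d, while 7 were higher and 2 lower in PMSC-MF-3d against the same libraries, where 27.2% and 27.4% of all genes were. H6pd, which starts the pathway in the endoplasmic reticulum, was lower by -0.93 ± 0.15 at day 7 and Pgls, the lactonase of the next step, higher by 0.87 ± 0.15.

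Promoter windows of 4 members are shown because HIF is known to bind the core ACGTG or GCGTG and because each held several such words and changed with cell type or culture: Slc16a3 and Hk2 rose with culture in stellate cells and fell in portal cells, Pgk1 rose in both, and Bnip3 fell in portal cells. The sequences are RefSeq's, build GRCm38.p6, from 250 bases before to 50 bases after the annotated start, 5′ to 3′ on the gene's strand. Capitals mark ACGTG and GCGTG, or their reverse complements CACGT and CACGC.
Slc16a3, chr11:120948817-120949116, plus strand: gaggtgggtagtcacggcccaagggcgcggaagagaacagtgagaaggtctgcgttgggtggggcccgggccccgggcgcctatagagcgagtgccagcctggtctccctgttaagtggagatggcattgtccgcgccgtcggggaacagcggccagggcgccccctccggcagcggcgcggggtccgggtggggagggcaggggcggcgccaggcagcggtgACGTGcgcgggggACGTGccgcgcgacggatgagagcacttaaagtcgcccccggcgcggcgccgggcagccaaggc
Pgk1, chrX:106186850-106187149, plus strand: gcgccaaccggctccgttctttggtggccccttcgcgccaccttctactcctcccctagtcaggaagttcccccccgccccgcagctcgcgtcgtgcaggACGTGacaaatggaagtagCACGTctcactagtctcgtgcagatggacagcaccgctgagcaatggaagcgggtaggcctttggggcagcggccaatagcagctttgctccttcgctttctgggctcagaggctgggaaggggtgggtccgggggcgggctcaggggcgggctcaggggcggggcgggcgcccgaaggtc
Hk2, chr6:82774405-82774704, minus strand: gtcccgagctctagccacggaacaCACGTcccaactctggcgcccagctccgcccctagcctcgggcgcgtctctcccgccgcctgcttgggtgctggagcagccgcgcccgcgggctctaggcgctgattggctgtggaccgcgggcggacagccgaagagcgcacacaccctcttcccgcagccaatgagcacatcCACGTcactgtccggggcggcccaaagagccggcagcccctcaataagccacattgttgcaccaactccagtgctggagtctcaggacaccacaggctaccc
Bnip3, chr7:138909457-138909756, minus strand: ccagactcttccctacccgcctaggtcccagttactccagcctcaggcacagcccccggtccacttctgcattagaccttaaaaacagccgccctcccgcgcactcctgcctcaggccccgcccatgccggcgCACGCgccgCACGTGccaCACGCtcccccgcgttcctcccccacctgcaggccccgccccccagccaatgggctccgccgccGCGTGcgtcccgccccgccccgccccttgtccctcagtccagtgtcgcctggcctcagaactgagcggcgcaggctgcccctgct

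Windows were found for 29 of the 32 members. ACGTG, read on both strands, was in at least 1 window of 20 of these 29 genes (69.0%), against 21.8% of 27025 genes with a window. GCGTG, on both strands, was in 19 (65.5%) against 35.2%, and either word in 26 (89.7%) against 46.7%. Members had more windows per gene, but counted by window, ACGTG was in 54.8% of 42 member windows against 19.6% of all 32851, and either word in 81.0% against 43.8%. The 27025 genes were not restricted to those tested here, so these shares are not matched for expression. Both words hold CG, and the shares are not matched for CG content either. Members were listed as glycolysis and hypoxia response genes, so a high share of HIF words can come from that choice and is not a finding about them. ACGTG overlaps its own reverse complement in CACGTG, as in the Bnip3 window, where both were counted. A match describes these letters in this window and is neither a bound site nor a cause of any change.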

How the data were processed

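Per the labels' protocols, the RNeasy Micro kit gave total RNA, and libraries were stranded mRNA libraries from a KAPA kit. The submitters' processing notes name FastQC, Trimmomatic, STAR 2.5.3a, RSEM 1.2.28 and build mm10. The deposited tables hold expected counts (estimated reads per gene, not normalized) and TPM (scaled for gene length and library) per library, per the file headers.

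Libraries were grouped by their titles into 5 groups of 4. Expected counts were rounded, and 14751 of 24848 genes passed filterByExpr, 10097 being left out. All 20 libraries entered 1 robust quasi-likelihood model in edgeR 4.0.16 (R 4.3.3) with TMM scaling and 1 term per group, and p-values were adjusted by Benjamini-Hochberg over all genes tested within a comparison, with a threshold of 0.05. Standard errors were the log2 fold change divided by the square root of its F statistic. The scripts were tested on simulated data. Ratios of related genes used log2(TPM + 0.1) within a library and exact two-sided permutation tests. Alternatives were library totals, relative log expression and upper-quartile scaling, no filter, a replicate block, DESeq2 1.42.0, limma 3.58.1 on log2(TPM + 1), fits of only the groups compared, and each library left out. Summed markers and other lists are in CPM. Depth ran from 11810532 to 26675589 expected counts per library, which limits the low genes most. Genes outside the 32 were named where they were among the at most 3 called genes of largest change in their list, with at least 10 CPM in the higher group, in PMSC-MF-7d against HSC-MF-7d or PMSC against HSC, besides Alb. The members and lists were chosen with earlier results of these data known. The result of 1 list of liver genes is not reported here.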

Additional observations from a re-analysis of the deposited data

Results flagged for a closer look

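The culture change of portal cells (PMSC-MF-7d against PMSC) minus that of stellate cells (HSC-MF-7d against HSC) passed the edgeR test of the difference for 24 members, given here as log2 values. Of all tested genes, 60.6% passed in either direction. Among enzymes it was lower for Hk2 (-6.20), Eno2 (-5.02), Pfkp (-1.01), Gpi1 (-0.58), Gapdh (-0.455), Pgam1 (-0.42), Tpi1 (-0.40) and Aldoa (-0.35), and higher for Aldoc (2.91), Eno1 (1.04) and Pfkl (0.42). Of these, Gpi1, Gapdh, Pgam1, Tpi1 and Aldoa lost the call with library totals, and Aldoc and Pfkl lost it when some single libraries were left out. It was lower for the transporters Slc16a3 (-5.00), Slc16a1 (-3.54), Slc2a1 (-3.14) and Slc2a3 (-2.97), and for Ldha (-1.02). Of the flux regulators it was lower for Pfkfb3 (-2.26) and Pfkfb4 (-1.52) and higher for Pdk1 (1.48). In the HIF genes it was lower for Egln3 (-3.62), Ankrd37 (-1.80), Ndrg1 (-1.66), Bnip3 (-1.35) and Hif1a (-0.74).

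A library stood far from the other 3 of its group, by Dixon's test, for 8 of 160 sets of gene and group (5.0%), where chance gives about 1 in 20. Hk2 had 40.4 CPM in HSC library 1, Eno2 had 0.417 CPM in HSC library 2, Aldoc had 0.579 CPM in PMSC-MF-7d library 1, and Egln1 had 88.5 CPM in PMSC-MF-7d library 2, all high. Slc2a3 had 48.4 CPM in PMSC library 2, Pfkfb4 had 27.1 CPM in PMSC library 3, and Ankrd37 had 3.06 CPM in PMSC library 1, all high. Hif1a was low in PMSC-MF-3d library 1, at 137.9 CPM.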

How the results depend on the processing

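Counts of members called kept within 1.5 times of their value except as follows. In PMSC-MF-3d against HSC-MF-7d, 9 members were higher when only those groups were fitted, and in PMSC against HSC, 13 were higher with library totals and 12 with limma. Limma called 7226 of all genes higher in the difference of culture changes. Signs reversed in PMSC against HSC for Aldoa (-0.0943 with totals, -0.13 with limma), Gapdh (-0.069 and -0.107) and Bnip3 (-0.0195 with limma). In PMSC-MF-3d against PMSC they reversed for Slc2a1 (0.43 with totals, 0.31 with limma) and Hif1a (0.11 with totals), in PMSC-MF-7d against PMSC for Hif1a (0.44 and 0.45), and in the difference of culture changes for Aldoa (0.0061 with limma). The members' median reversed in PMSC-MF-7d against PMSC-MF-3d (0.0075 with upper quartile, 0.08 with limma, -0.0694 to 0.0229 with 1 library left out) and in PMSC-MF-7d against PMSC (0.0559 with limma). With a pseudocount of 1 TPM, the log2 ratio of Eno2 to Eno1 in HSC-MF-7d minus that in HSC was -1.45, against 0.02 with 0.1 TPM. Eno2 averaged 0.192 TPM in HSC and 1.56 TPM in HSC-MF-7d, so a pseudocount of 1 TPM outweighs its level in HSC. With 1 library left out, members higher ranged from 18 to 20 in PMSC against HSC and 22 to 24 in HSC-MF-7d against HSC, and members lower in the difference of culture changes from 18 to 24. Replicate numbers paired the libraries weakly at most (correlations of -0.041 to 0.145). In PMSC-MF-7d against PMSC-MF-3d, libraries 1, 2 and 4 matched best with their own number, at 0.122, 0.1 and 0.089. With a replicate block 19 members were higher and 8 lower in PMSC against HSC, and 12 higher and 17 lower in PMSC-MF-3d against PMSC. In PMSC-MF-7d against PMSC-MF-3d they stayed at 9 higher and 10 lower. In the difference of culture changes, relative log expression and DESeq2 each called 25 members lower, adding Hk1, Pgk1, Pkm, Ldhb and Egln1. Depth limits Aldoc, Eno2 in HSC and Ankrd37.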
